A study of Mus musculus with 12 samples.

Results

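The contacts of 44 captured promoter fragments were compared between untreated PRC1CPM cells and PRC1CPM cells that had received 4-hydroxytamoxifen (OHT), in all 842 interactions of the deposited CaptureC table. CaptureC ligates crosslinked DpnII restriction fragments and enriches those joined to a chosen fragment, the bait, so that a higher normalized read count means that 2 fragments were joined more often. PRC1CPM cells are male mouse embryonic stem cells (ESCs) of strain E14, grown with serum and leukemia inhibitory factor. Their genotype in the labels is Ring1aI50A/D53K with Ring1b(WT->I53A/D56K)fl/fl and Rosa26::ERT2-Cre. Untreated cells therefore already carried catalytically inactive RING1A and the tamoxifen-inducible Cre recombinase, and made wild-type RING1B. In the cells treated with 800 nM OHT for 72 h, Cre inverts an exon pair of Ring1b, so that RING1B is made in the I53A/D56K form, which stays in the complex but cannot ubiquitylate histone H2A. Each group had 3 replicates, all from 1 clone of this line. No column used here comes from cells that received OHT without the switch, so OHT and Cre cannot be told apart from the change in RING1B. CaptureC measures no expression, so neither the cell type nor the loss of catalysis could be checked in these files.

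Polycomb repressive complex 1 (PRC1) contains RING1A or RING1B, the enzymes that ubiquitylate histone H2A (H2AK119ub1), and keeps developmental genes silent in ESCs. Canonical PRC1 holds PCGF2 or PCGF4 together with a CBX protein, which binds the H3K27me3 mark of PRC2, and a PHC protein that can polymerise. Genes covered by canonical PRC1, such as Hox clusters, are known to come together in ESC nuclei over long genomic distances.

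Each interaction joins a bait to another region of its own chromosome, made of 1 or more DpnII fragments. Of the 44 baits, 24 are listed by gene in the study's bait file and were marked as overlapping a site that RING1B and PCGF2 both occupy, whereas the other 20 were neither listed nor marked. The other end of an interaction was likewise marked as lying on a RING1B and PCGF2 site (a PCGF2 site here) or not (other sites, which may include RING1B peaks without PCGF2). This gave 130 interactions of 22 listed baits with PCGF2 sites, 284 of 24 listed baits with other sites, 27 of 14 unlisted baits with PCGF2 sites and 401 of 20 unlisted baits with other sites. The Nlgn1 and Cdh11 baits, both for cell adhesion proteins, had no contact with a PCGF2 site in the table. The 130 contacts fell on 93 distinct regions, of which 13 were reached by 2 or more baits and held 50 of the contacts, so the contacts are not independent of each other.

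The capture probes of the baits begin at the DpnII site GATC, in capitals in the left-hand probes of the baits whose contacts head the list of decreases and of Hoxb3, the bait with most reads at PCGF2 sites (each 5′ to 3′, in the GRCm38 bait fragments chr2:147185640-147186419, chr11:119547651-119547929, chr2:70474823-70475105 and chr11:96343553-96345280):
Nkx2-2 probe: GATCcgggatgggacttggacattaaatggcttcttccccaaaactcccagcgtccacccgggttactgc
Nptx1 probe: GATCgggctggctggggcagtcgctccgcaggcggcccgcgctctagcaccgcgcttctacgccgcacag
Sp5 probe: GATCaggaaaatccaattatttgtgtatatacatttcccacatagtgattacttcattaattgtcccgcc
Hoxb3 probe: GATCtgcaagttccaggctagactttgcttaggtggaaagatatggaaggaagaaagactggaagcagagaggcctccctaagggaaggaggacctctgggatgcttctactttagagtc

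The regions contacted differed in base composition. The summit of an interaction is the fragment marked in it by score, the same for all groups. The ratio of observed to expected CG dinucleotides in the summit fragment had a median of 0.492 at the PCGF2 sites of listed baits against 0.230 at their other sites. The median GC content was 52.8% against 44.9%. Unlisted baits had CG ratios of 0.291 at PCGF2 sites and 0.215 at other sites. The middle 200 bases of 4 summit fragments (GRCm38, forward strand, from the RefSeq genome sequence) are printed with every CG in capitals, the first 2 for contacts at PCGF2 sites with the lowest log2 changes and the last 2 for other sites, namely the one with the highest log2 change and the one with most reads, where changes were ranked among contacts with at least 30 reads (untreated at PCGF2 sites, in either column at other sites):
Nkx2-2 bait to Foxa2, chr2:148046023-148046222: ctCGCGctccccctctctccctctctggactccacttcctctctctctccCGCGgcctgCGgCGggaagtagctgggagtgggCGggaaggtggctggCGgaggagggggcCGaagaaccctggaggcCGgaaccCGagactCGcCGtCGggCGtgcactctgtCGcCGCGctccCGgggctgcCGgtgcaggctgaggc
Sp5 bait to Dlx1, chr2:71530646-71530845: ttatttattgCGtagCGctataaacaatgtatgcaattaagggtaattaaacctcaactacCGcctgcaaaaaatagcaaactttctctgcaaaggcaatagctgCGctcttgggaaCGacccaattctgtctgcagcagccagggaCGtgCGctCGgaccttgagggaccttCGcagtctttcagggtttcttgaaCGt
Gata5 bait to a region nearest Bhlhe23, chr2:180755089-180755288: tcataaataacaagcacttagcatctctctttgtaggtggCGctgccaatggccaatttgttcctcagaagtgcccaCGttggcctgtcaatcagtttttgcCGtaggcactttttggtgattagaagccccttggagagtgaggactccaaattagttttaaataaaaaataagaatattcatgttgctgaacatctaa
Hoxb1 bait to Skap1, chr11:96540742-96540941: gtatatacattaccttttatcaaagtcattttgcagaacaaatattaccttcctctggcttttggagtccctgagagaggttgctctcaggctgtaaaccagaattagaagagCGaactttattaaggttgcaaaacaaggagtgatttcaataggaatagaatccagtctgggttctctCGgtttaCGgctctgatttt
These stretches held 20 and 10 CG dinucleotides at the PCGF2 sites and 3 each at the other sites.

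The deposited table has 1 pooled column per group, so a value has no replicate spread and no p-value between conditions can be given. Counts are therefore described by medians and shares over interactions, and single contacts by a nominal 95% Wilson interval that covers counting error only. Each normalized count was a whole multiple of the value of 1 weighted read, 0.00112 in the untreated and 0.00122 in the OHT column, and the weighted reads recovered in this way are quoted below. All interactions together held 102920 weighted reads untreated and 70920 after OHT, which is a part of each library and not its depth. Normalized counts are relative to all reads on captured promoters, and the median of all contacts outside PCGF2 sites shifted by -0.19 on the log2 scale.

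After OHT, the contacts of Polycomb target promoters with other PCGF2 sites had lower counts than before. The 130 contacts had 41526 weighted reads untreated and 20681 after OHT, which is 54.4% of the untreated normalized count. A contact had a median of 35 reads (quartiles 8 and 188) untreated and 15 reads after OHT. The median log2 change of the mean normalized count per fragment was -0.85 (quartiles -1.18 and -0.57), and the median contact kept 49.6% of its untreated count. The counts of the 284 contacts of the same promoters with other sites went from 28109 to 23103 reads, or 89.8% of the untreated normalized count, with a median log2 change of -0.17 (quartiles -0.43 and 0.13). With counts below 3 reads set to 3, which limits the folds of very small counts, the medians were -0.75 and -0.17. A contact with 3 reads or fewer in both columns then takes a log2 change of 0.13, from the 2 read values, and still enters the median. At PCGF2 sites 16 contacts had 3 reads or fewer untreated and 33 after OHT.

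The unlisted baits serve as a comparison within the same libraries. Their 401 contacts with other sites had a median log2 change of -0.21 and kept 89.1% of the summed normalized count, and their 27 contacts with PCGF2 sites had a median of -0.22 and also kept 89.1%. All 20 unlisted baits had a median below 0, between -0.50 and -0.01. Contacts with a PCGF2 site at the far end but not at the bait thus had a median close to that of other sites, whereas contacts with a PCGF2 site at both ends had the lower one. The difference between these classes was not tested, since all share the same pooled libraries.

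**Figure D1:**
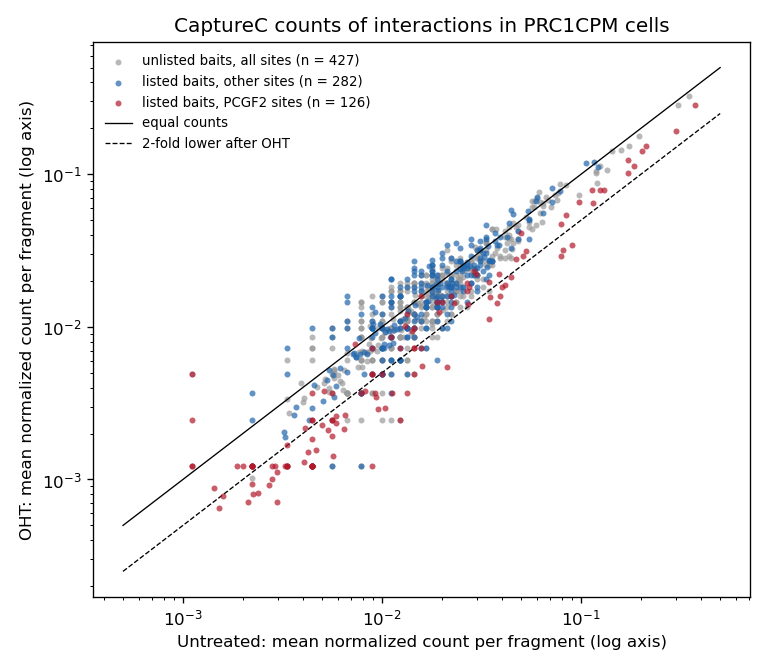
Mean normalized count per DpnII fragment after OHT (vertical) against untreated (horizontal), both on log axes, for each interaction with a count in both columns. Points of listed baits at PCGF2 sites lie mostly between the line of equal counts and the dashed line of 2-fold lower counts or below it, whereas the other points lie around or just below the line of equal counts.

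A lower count was the more frequent direction in both classes. The normalized count was lower after OHT at 122 of the 130 contacts with PCGF2 sites and at 190 of the 284 with other sites, where 73.8% of all 842 interactions were lower. It was at least 2-fold lower at 55 of the 130 (42.3%) and at 11 of the 284 (3.87%), against 10.3% of all interactions. A count at least 2-fold higher was seen at 2 and 3 contacts, against 0.831% of all. The counting interval of the ratio lay wholly below no change at 74 of the 130 and 21 of the 284 contacts, against 14.7% of all interactions, and wholly above it at none, which is 0% of the 842. A two-sided binomial test of the weighted reads of the pooled libraries, with Benjamini-Hochberg adjustment over all interactions, was passed by 60 of the 130 and 10 of the 284, all lower, against 9.03% of all. That test compares the 2 pooled libraries and not the conditions.

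**Figure D2:**
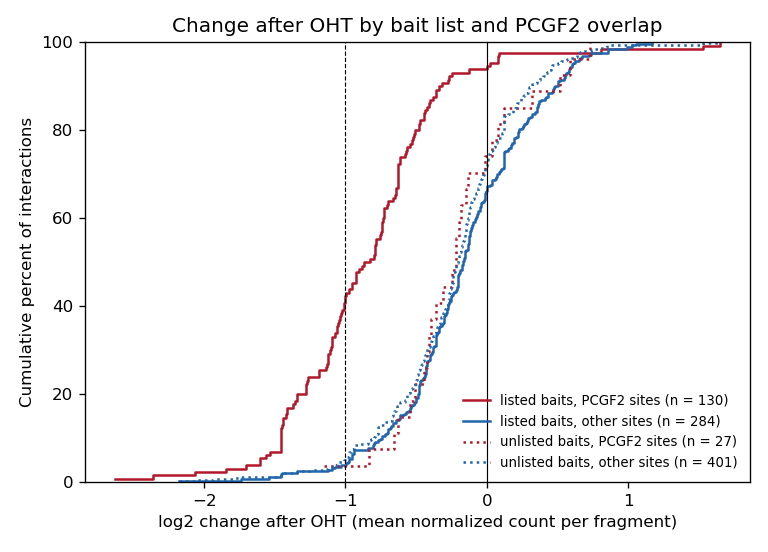
Cumulative percent of interactions (vertical) by their log2 change in mean normalized count per fragment after OHT (horizontal), for listed and unlisted baits at PCGF2 sites and other sites. The curve for listed baits at PCGF2 sites, with a median of -0.85, lies apart from the other 3, whose medians are between -0.22 and -0.17, and the dashed line marks 2-fold lower.

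The contacts that did not decrease were few and mostly had hardly any reads. Among the 8 contacts with PCGF2 sites that were not lower, 6 had at most 4 reads in either library. The exceptions were Hoxb3 with the Sp6 region, at 124 reads untreated and 121 after OHT, and Hoxb1 with the neighbouring Scrn2 fragment, at 14 and 13 reads. Both lie in 1 region (chr11:97019450-97025948), whose summed count over 4 Hox baits went from 158 to 150 reads, or 104% of the untreated normalized count, which is the only one of the 13 regions shared by several baits that was not lower. The 2 contacts that were at least 2-fold higher went from 1 to 4 reads (Hoxb3 with Lhx1, 437% with a counting interval of 65.7 to 2908%) and from 0 to 1 read (Eomes with Foxl2), and no fold is given for the latter because both counts are under the floor of 3 reads.

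CHiCAGO scores, which set the reads of a fragment against a background that declines with distance, were lower after OHT as well. The median of the mean score per fragment was 3.60 untreated and 0.760 after OHT at PCGF2 sites of listed baits, and 4.47 and 3.27 at their other sites. It was lower after OHT at 113 of the 130 contacts and 192 of the 284, against 67.7% of all interactions. The total score was 0 at 13 of the 130 contacts untreated and at 40 after OHT, compared with 4 and 5 of the 284. Scores depend on depth as well as on contact strength. The fewer reads of the OHT column in these interactions are not its depth. The value of 1 weighted read, set by the reads on all captured promoters, was 0.00112 untreated and 0.00122 after OHT. The part of depth in the scores was not tested.

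Most Polycomb contacts were no longer called after OHT. An interaction was called when its summit reached the study's threshold, a score of 5. The summit is the same fragment in all groups, so another fragment of an interaction may score higher in a column. Of the 130 contacts with PCGF2 sites, 86 were called untreated and 15 after OHT, compared with 176 and 109 of the 284 with other sites, where 58.8% of all interactions were called untreated and 33.6% after OHT. At PCGF2 sites 75 were called only untreated, 11 in both and 4 only after OHT. At other sites 149 were called only untreated, 27 in both and 82 only after OHT. Since an interaction entered the table by a score of 5 in any of the 4 groups of the series, contacts called in 1 column alone were in part selected by their value there. At other sites the median log2 change was -0.40 for those called only untreated and 0.35 for those called only after OHT. Contacts called in neither column entered through other groups of cells or, where they span several fragments, possibly through a fragment other than the summit. Among these, the 40 contacts with PCGF2 sites went from 6345 to 3356 reads, with a median log2 change of -0.63 (-0.43 with the floor of 3 reads). The 26 with other sites went from 911 to 786 reads, with a median of -0.01 (0.01 with the floor). The 40 were thin, with medians of 8 reads untreated and 3 after OHT. The counting interval lay below no change at 13 of the 40 and 0 of the 26. These contacts, too, were chosen by their scores in the 2 columns.

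**Figure D3:**
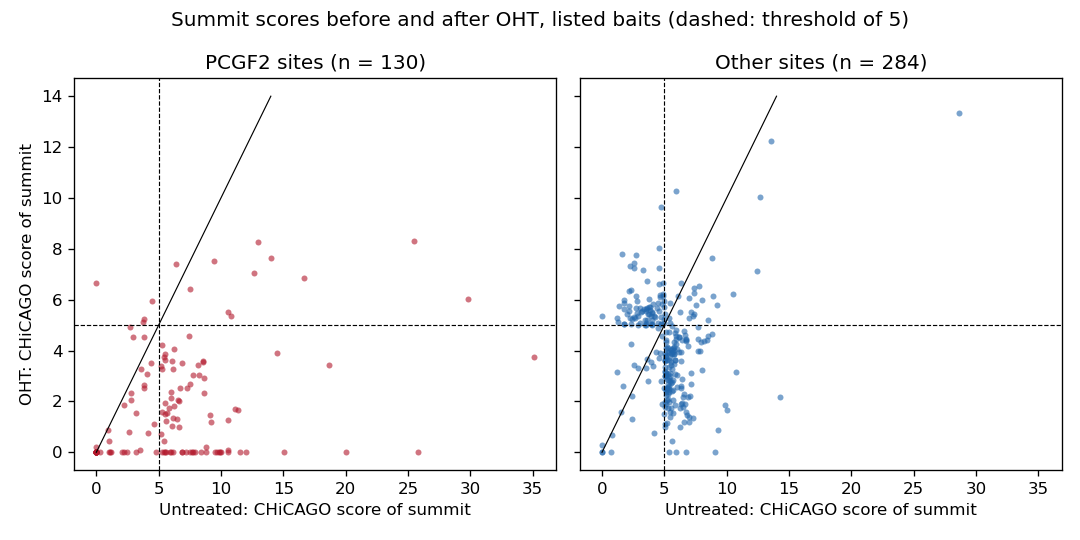
CHiCAGO score of the summit fragment after OHT (vertical) against untreated (horizontal) for contacts of listed baits with PCGF2 sites (left) and other sites (right), with the line of equal scores and dashed lines at the threshold of 5. After OHT 15 of 130 contacts with PCGF2 sites and 109 of 284 with other sites reach the threshold, and many of the former sit at a score of 0.

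A median below 0 was seen at every listed bait that had a contact with a PCGF2 site, although several of these baits had few reads there. The median log2 change at PCGF2 sites was below 0 at 22 of 22 baits and below that of the bait's own other sites at 22 of 22. The summed normalized count left after OHT was also the smaller at PCGF2 sites for 20 of them. The exceptions were Isl1, with 59.3% left at PCGF2 sites and 53.3% at other sites, and Fgf9, whose only other-site contact had 0 reads in both libraries. At other sites the median was below 0 for 20 of the 24 listed baits, and all 20 unlisted baits had a median below 0 as well. Of the 22 baits, 16 had 3 or more contacts with PCGF2 sites.

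Baits for homeobox factors outside the Hox clusters kept the least of the 4 role groups with contacts at PCGF2 sites. Most of the reads of this group came from the Nkx2-1 and Nkx2-2 baits. Their 51 contacts with PCGF2 sites went from 10090 to 3824 reads, or 41.4% of the untreated normalized count, with a median log2 change of -1.02, and 49 of 51 were lower. The 52 contacts of these baits with other sites kept 86.1%. Nkx2-2, a factor of the ventral neural tube and the pancreas, went from 3551 to 1192 reads over 11 contacts, or 36.7%. Nkx2-1, a factor of lung, thyroid and forebrain, went from 4751 to 1852 reads over 13 contacts, or 42.6%.

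The remaining homeobox baits had fewer reads but the same direction, and kept between 41.4 and 59.3%. Baits for other transcription factors kept 47.4% and those for secreted, receptor and signalling proteins 48.4%. The low share of the homeobox group thus rests on the 2 Nkx2 baits. The 48.4% in turn rests largely on Nptx1, which held 740 of the 1210 untreated reads of its group and kept 30.7%. The other baits of that group, apart from Fgf9, kept 59.6% or more. Dmbx1, a midbrain factor, had 835 reads untreated and 316 after OHT over 4 contacts (41.4%), all 4 below no change by counting error. Dlx2, a factor of forebrain interneurons, had 456 and 202 reads over 15 contacts (48.4%). Pax7, a factor of muscle satellite cells, had 71 and 31 reads over 4 contacts (47.7%). Isl1, a factor of motor neurons and heart progenitors, had 426 and 231 reads over 4 contacts (59.3%).

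Hox baits held most of the reads and kept more of them. Their 47 contacts with PCGF2 sites went from 27917 to 15319 reads, or 60.0% of the untreated normalized count, with a median log2 change of -0.73, and 43 were lower. Over the 83 contacts of the other 17 baits 43.1% was left, with a median of -1.01. Within the Hoxb cluster on chromosome 11 the 4 baits kept between 59.2 and 63.8%. Hoxb1 went from 4043 to 2361 reads (63.8%), Hoxb2 from 8706 to 4716 (59.2%), Hoxb3 from 13014 to 7151 (60.1%) and Hoxb5 from 1646 to 917 (60.9%). Hoxd10, in the Hoxd cluster on chromosome 2, went from 508 to 174 reads, which leaves 37.4%, less than any Hoxb bait. The contacts of Hox baits were also the nearer ones, with a median distance of 170 kb against 1376 kb for the other homeobox baits.

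Baits for other transcription factors went from 2309 to 1002 reads over 21 contacts, or 47.4%. Sp5, a target of Wnt signalling, had 983 reads untreated and 357 after OHT over 3 contacts (39.7%). Fli1, an ETS factor of blood and endothelium, had 1091 and 532 over 6 contacts (53.3%). Zfp503, a zinc finger repressor, had 153 and 58 over 5 contacts (41.4%). Eomes, a T-box factor of mesendoderm, had 36 and 23 over 5 contacts (69.8%), and Gata5, a factor of heart and endoderm, had 46 and 32 over 2 contacts (76.0%). No contact of Eomes or Gata5 with a PCGF2 site was below no change by counting error.

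Among baits for secreted, receptor and signalling proteins, Nptx1, a neuronal pentraxin, had the most reads at PCGF2 sites. Its 4 contacts with PCGF2 sites went from 740 to 208 reads, or 30.7%, while its 7 other contacts kept 90.5%. Islr2, a neuronal membrane protein, went from 373 to 266 reads at its only PCGF2 site (78.0%). The other members had 45 reads or fewer, with Hcrtr1, an orexin receptor, at 45 and 34 reads (82.6%), Ctdspl, a phosphatase, at 31 and 20 (70.5%), Igfbp5, which binds insulin-like growth factors, at 11 and 6 (59.6%) and Fgf9, a growth factor, at 10 and 2 (21.9%). Apart from Islr2 and Fgf9, counting error spanned no change at each contact of these smaller baits.

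**Figure D4:**
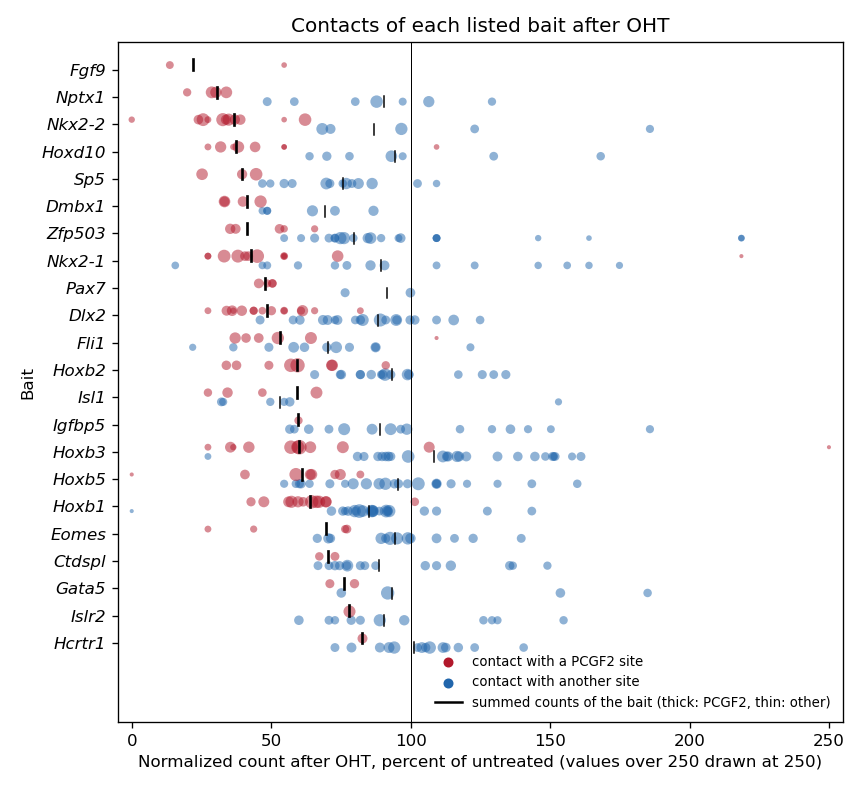
Normalized count after OHT as a percent of the untreated count (horizontal) for every contact of each of the 22 listed baits with a PCGF2 site (vertical, ordered by summed counts), where larger points had more untreated reads. Thick ticks mark the summed count at PCGF2 sites, from 21.9% at Fgf9 to 82.6% at Hcrtr1, and thin ticks the summed count at other sites. Contacts with 0 untreated reads are not drawn.

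Contacts between homeobox and forkhead genes were among those with the largest decreases. Of the 72 contacts with PCGF2 sites that had at least 30 untreated reads, the lowest log2 change (-1.85, with the pseudocount) was that of Nkx2-2 with Foxa2 (chr2:148030001-148051985, 844 kb from the bait), a forkhead factor of endoderm and floor plate, from 931 to 218 reads. This leaves 25.6% of the untreated normalized count (95% counting interval 22.1 to 29.7%). The summit score of this contact, with the exonic CG-rich summit printed above, was 35.1 untreated and 3.76 after OHT. Nkx2-1 with Foxa1 (chr12:57518582-57555653, 982 kb), the paralogue of Foxa2, went from 884 to 268 reads, or 33.1% (28.9 to 38.0%).

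Nkx2-2 held 5 of the 10 largest decreases. Its contact with Pax1 (chr2:147358440-147375111, 172 kb), a paired-box factor of the sclerotome, went from 1302 to 389 reads, or 32.7% (29.2 to 36.6%). Its contact with the region of Cfap61 and Insm1 (chr2:146213186-146229118), the latter a zinc finger factor of neuroendocrine cells, went from 415 to 132 reads, or 34.8% (28.6 to 42.3%). That with the neighbouring homeobox gene Nkx2-4 went from 71 to 24 reads, or 36.9% (23.4 to 58.5%). The fifth joined Nkx2-2 to Meis2, a TALE homeobox factor 31.1 Mb away, and went from 32 to 7 reads, or 23.9% (10.8 to 53.0%).

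The Nptx1 bait contacted Cbx8, which encodes a chromobox subunit of canonical PRC1 itself. Its contacts with 2 regions at Cbx8 went from 163 to 45 reads, or 30.2% (21.7 to 41.9%), and from 261 to 81 reads, or 33.9% (26.5 to 43.5%). The same gene was contacted from the Hoxb cluster over 22.7 Mb. Hoxb3 with Cbx8 had 190 reads untreated and 73 after OHT, or 42.0% (32.1 to 55.0%). Hoxb2 with Cbx8 had 32 and 11 reads, or 37.6% (19.2 to 73.6%), and Hoxb1 with Cbx8 32 and 18, or 61.5%, with an interval of 34.8 to 109% that spans no change. Over all baits that reached it, the Cbx8 region had 699 reads untreated and 237 after OHT (37.1%).

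Chromosome 2 showed a second set of regions shared by baits. Sp5 with Dlx1 (chr2:71527527-71546341, 1052 kb), a homeobox gene beside Dlx2, went from 234 to 54 reads, or 25.2% (18.8 to 33.9%). Hoxd10 reached the same region over 3145 kb and went from 168 to 49 reads (31.9%), while the fragment at its far end from the Dlx2 bait, 18.4 kb away, went from 166 to 93 reads (61.2%). Gad1, the gene for an enzyme that makes GABA, was reached by Sp5 over 82.5 kb with 691 and 282 reads (44.6%). The region of Hoxd3 was reached by Dlx2 over 3185 kb with 45 and 14 reads (34.0%) and by Hoxd10 over 42.9 kb with 243 and 85 reads (38.2%).

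Of the 10 smallest changes, 5 lay inside the Hoxb cluster. Hoxb3 with Hoxb4 (chr11:96318790-96320153, 23.4 kb) went from 335 to 232 reads, or 75.7% (64.0 to 89.5%). Hoxb2 with the same fragment went from 190 to 125 reads (71.9%) and Hoxb2 with the adjacent Hoxb4 fragment from 154 to 101 (71.7%). Hoxb5 with Hoxb1 went from 133 to 91 reads (74.8%), and Hoxb1 with Hoxb6 from 102 to 65 (69.7%). These contacts were between 23.4 and 68.3 kb from their baits and the counting interval of each was below no change.

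The neighbouring Hoxb2 and Hoxb3 baits gave like values at a shared block of the cluster. The block from Hoxb5 to Hoxb9 went from 6131 to 3335 reads from the Hoxb2 bait, or 59.5% (57.0 to 62.0%), and from 8791 to 4834 from the Hoxb3 bait, or 60.1% (58.0 to 62.2%). Over all baits that reached it, the Hoxb13 region, at the far end of the cluster, went from 6683 to 3564 reads (58.3%). Besides that of Hoxb1 with Cbx8 given above, the smallest changes outside the Hoxb cluster were those of Hoxb3 with Sp6 (107%, 83.1 to 137%), Hcrtr1 with Adgrb2 (82.6%, 53.1 to 128%), Islr2 with Sema7a (78.0%, 66.6 to 91.2%) and Nkx2-1 with Slc25a21 (73.8%, 60.1 to 90.7%). Sema7a encodes a semaphorin, Adgrb2 an adhesion receptor and Slc25a21 a mitochondrial carrier.

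Of the 15 contacts called after OHT, 11 had also been called untreated. They included Nkx2-1 with Pax9, a paired-box factor of pharyngeal pouches, which went from 2502 to 1030 reads (45.0%) with summit scores of 12.9 and 8.26. Nkx2-1 with its paralogue Nkx2-9 went from 1048 to 365 reads (38.1%) with scores of 25.5 and 8.31. Dmbx1 with Tal1, a blood factor, went from 485 to 205 reads (46.2%) with scores of 12.6 and 7.03, and Isl1 with a region nearest Parp8 from 330 to 200 (66.2%) with scores of 9.41 and 7.51. A call after OHT therefore did not mean an unaltered count. Of the 4 called only after OHT, Hoxb1 with Hoxb5 (154 and 84 reads) and Hoxb2 with the Hoxb5 to Hoxb9 block had lower counts, and the others were the Sp6 and Lhx1 contacts of Hoxb3.

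Contacts with PCGF2 sites were set against their distance from the bait. The 19 contacts within 100 kb kept a median of 64.0% of the untreated count, the 49 from 100 kb to 1 Mb 52.4%, the 38 from 1 to 10 Mb 44.0% and the 24 over 10 Mb 36.4%. The far contacts were thin, with medians of 243, 73, 10.5 and 4 untreated reads in these classes, and with the floor of 3 reads the median log2 changes were -0.64, -0.93, -0.96 and -0.29. Among the 72 contacts with at least 30 untreated reads, a filter on 1 column, the floored medians were -0.64 (n = 19), -1.10 (n = 30), -1.42 (n = 17) and -1.46 (n = 6). Across these 72 contacts the Spearman correlation of the floored log2 change with distance was -0.58, and it was -0.50 between distance and untreated reads. Over all 130 contacts the correlation of the floored change with distance was 0.16, so its sign depended on the read filter. Of the 19 contacts within 100 kb, 16 belonged to Hox baits. Without Hox baits the median log2 change, with the pseudocount and no floor, was -1.13 within 100 kb (n = 3), -1.005 from 100 kb to 1 Mb (n = 36), -0.92 from 1 to 10 Mb (n = 34) and -1.22 over 10 Mb (n = 10), with no steady decline over distance. Of the 41 of these contacts with at least 30 untreated reads the floored medians were -1.16 (n = 3), -1.34 (n = 21), -1.42 (n = 15) and -1.81 (n = 2), and the Spearman correlation was -0.36. Over all 83 contacts without Hox baits the floored medians were -1.16, -1.10, -0.96 and -0.29, and the correlation was 0.30. Contacts share baits, regions and libraries, so this is a description.

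At other sites the changes were smaller. Their floored medians were -0.01 within 100 kb (n = 14), -0.18 from 100 kb to 1 Mb (n = 233) and -0.24 from 1 to 10 Mb (n = 35), and just 2 contacts lay over 10 Mb. At every one of these distances with 14 or more contacts the median at PCGF2 sites was the lower. The 6 contacts over 10 Mb with at least 30 reads included the 3 between Hoxb baits and Cbx8 and those of Nkx2-2 with Meis2 and with Pax6, an eye and forebrain factor 41.5 Mb away that went from 55 to 17 reads (33.8%, 19.7 to 57.8%). Each of the 6 had a summit score of 0 after OHT, but that of Hoxb1 with Cbx8 was 0 untreated as well.

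**Figure D5:**
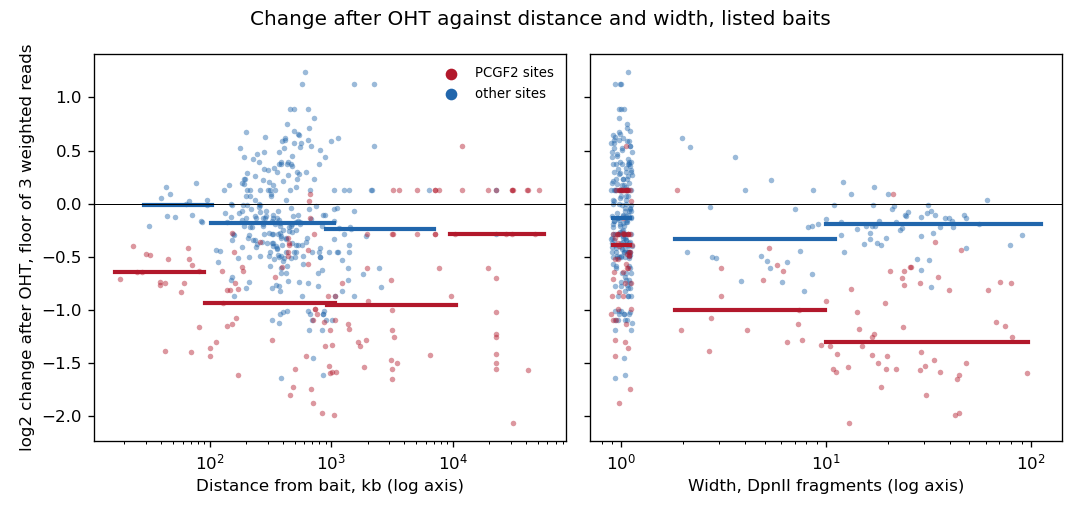
Log2 change in mean normalized count after OHT (vertical, counts below 3 weighted reads set to 3) against distance from the bait (left) and width in DpnII fragments (right), both on log axes, for contacts of listed baits. Horizontal bars are medians of the distance and width classes with over 4 contacts. At PCGF2 sites they run from -0.64 to -0.96 up to 10 Mb, and the bar over 10 Mb is at -0.29. By width they run from -0.39 at 1 fragment to -1.30 over 10 fragments. A small horizontal scatter separates points of equal width.

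Broad contacts with PCGF2 sites kept less than narrow ones. The 50 contacts wider than 10 fragments kept a median of 40.7%, with a floored median log2 change of -1.30, and 49 of 50 were lower. The 17 of 2 to 10 fragments kept a median of 50.1% and the 63 of 1 fragment 54.7%, with a floored median of -0.39 for the latter. Single-fragment contacts had a median of 8 untreated reads against 232 for the broad ones, so the floor weighs on them, and without it their median was -0.70 against -1.03. Among contacts with at least 30 untreated reads the floored medians were -0.64 (n = 15), -1.11 (n = 10) and -1.34 (n = 47). That filter admits contacts by a high untreated count, so these medians add no separate evidence on width. Width itself came from joining fragments that scored 5 or more in any group. Of the 50 broad contacts 43 were called untreated and 13 after OHT. At other sites width made little difference, with floored medians of -0.14 for 1 fragment, -0.34 for 2 to 10 and -0.19 for over 10.

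Contacts that included a gene start were mostly broad, and a wider region has more room for a start site. In 58 of the 130 contacts with PCGF2 sites the contacted region held a protein-coding transcription start site, and these had a median width of 17 fragments and a median log2 change of -1.04, whereas the other 72, with a median of 1 fragment, had a median of -0.64. Of the 58, 40 spanned over 10 fragments and 10 were single fragments, and the part of width in the difference was not tested. Among the summits of all 130 contacts, 50 were exonic, 26 intronic and 54 intergenic. At other sites 12 of 284 contacts held a start site, and their median was -0.23 against -0.16 for the rest.

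The CG content of the summit went with the size of the change in opposite senses at the 2 kinds of site. With contacts cut at the quartiles of the observed to expected CG ratio, from the lowest class to the highest, the median log2 change at PCGF2 sites was -0.73, -0.79, -0.93 and -1.05. At other sites it was -0.26, -0.17, -0.13 and -0.09. The Spearman correlations were -0.17 over the 130 contacts and 0.14 over the 284, and both are descriptions over contacts that share baits and libraries. Distance moved with these classes, also in opposite senses. The median at PCGF2 sites was 716 kb in the lowest class and 1945 kb in the highest, and at other sites 633 kb and 342 kb. The part of distance in the result was not tested.

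Among contacts with other sites, none with at least 30 reads in either library was 2-fold lower or higher. The lowest of the 99 were Fli1 with Kcnj1, a potassium channel gene, from 30 to 17 reads (61.9%, 34.5 to 111%), Islr2 with Csk, a kinase gene, from 31 to 17 (59.9%, 33.5 to 107%) and Igfbp5 with a region nearest Tnp1 from 31 to 18 (63.5%, 35.8 to 113%), all of which span no change. Fli1 with St3gal4, the gene of a sialyltransferase 2566 kb away, went from 96 to 51 reads (58.1%, 41.4 to 81.4%), and Nkx2-2 with a region 56.6 kb from Pax1 from 296 to 185 (68.3%, 56.9 to 82.1%).

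The highest were Gata5 with a region nearest Bhlhe23 (chr2:180754030-180755864), from 32 to 45 reads (154%, 98.1 to 241%), and Hoxb3 with regions nearest Cdk5rap3, from 31 to 41 (145%, 91.0 to 230%), and Skap1, from 30 to 38 (138%, 86.2 to 222%). They were followed by Igfbp5 with a region nearest Tns1, from 33 to 41 reads (136%, 86.2 to 214%), and Ctdspl with a region nearest Dlec1, from 25 to 31 (136%, 80.5 to 228%). The interval of each spans no change, so no increase was detectable at this depth. The 24 other-site contacts of Hoxb3 had 1745 reads untreated and 1728 after OHT, which is 108% of the untreated normalized count, beside 60.1% at its PCGF2 sites. The 3 contacts with most reads were slightly lower. Hoxb1 to Skap1 (chr11:96526332-96569869) went from 2649 to 1978 reads (81.6%, 77.0 to 86.5%), Gata5 to Cables2 from 1664 to 1397 (91.8%, 85.5 to 98.5%) and Eomes to a region 72.1 kb from its bait from 1330 to 1127 (92.6%, 85.6 to 100.3%).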

How the data were processed

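The deposited values come from 2 groups of 3 CaptureC libraries of PRC1CPM ESCs. The authors aligned and filtered paired-end reads with HiCUP and Bowtie2 (fragments of 100 to 800 bp, mm10), merged replicates and ran CHiCAGO. Versions of HiCUP and CHiCAGO are not given in the sources used here. The deposited signal columns hold CHiCAGO's weighted read counts, scaled by the authors to the reads falling on all captured promoters and to how many promoters were captured, as a sum over an interaction's fragments and for its summit fragment. The deposited score columns hold CHiCAGO scores in the same way. The authors took fragments that scored 5 or more in any group and joined those under 10 DpnII fragments apart. CHiCAGO scales and averages replicates when it merges them, and the reads carry no molecular identifiers, so a weighted read need not be 1 sequenced molecule and intervals are nominal. Library totals were not analysed here.

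Sums were divided by the number of fragments. Log2 changes used a pseudocount of 0.000646, the smallest non-zero mean count. At a tolerance of 0.1 read, 100% of values in both columns were whole multiples of 1 read. The OHT share of reads, with equal normalized counts at 47.8%, received a 95% Wilson interval, converted to a percent of untreated. A binomial test of that share was adjusted over all 842 interactions and called 76. The fold changes on the log2 scale understate changes of low counts.

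Coordinates are GRCm38, counted from 1. All 24 listed bait fragments and all 842 summits began with GATC there, and all 24 left and 24 right probes matched within 200 bp. Genes and start sites are protein-coding ones of the GENCODE M21 basic annotation, and a region without a start site is named by the nearest. The study's methods name Student's and rank sum tests in general and none for CaptureC counts of pooled columns. The bait list, role groups, classes and the rule for named contacts were chosen with earlier results of these data known. Apart from contacts with 1 region, which are not reported here, named contacts are the 10 largest decreases and 10 smallest changes at PCGF2 sites with at least 30 untreated reads, those called after OHT, and the 5 lowest and 5 highest at other sites with at least 30 reads in either column. The region at Sp6 and Scrn2, other regions shared by baits, contacts over 10 Mb and those with most reads were added after their values were seen. The 8 columns of other groups were not used. Python 3.11.15, pandas 2.3.3, numpy 2.4.6, scipy 1.17.1, pysam 0.24.0 and matplotlib 3.10.9 were used, and the scripts were tested on simulated data.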

Additional observations from a re-analysis of the deposited data

How the results depend on the processing

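Of 62 alternative values of the main results, 28 were tallied as within a nominal 95% interval (order statistics for medians, counting for shares) or, for counts of interactions, within 1.5 times. A further 33 were tallied as moved and 1 changed sign. The interval was that of the value reported, except for the sum of mean counts given below. Of 73 alternative values of medians of distance classes, width classes and single baits 14 moved and 0 changed sign. The median log2 change at PCGF2 sites of listed baits (-0.85) was -0.45 with a 10 times larger pseudocount, -0.70 without the 25% of lowest counts, -0.66 after centring on all sites without PCGF2, -1.01 without Hox baits and -0.63 over contacts called in neither column. At other sites (-0.17) it was -0.11, -0.22 for the summit fragment, 0.022 after centring, which turns its sign, and -0.0083 over contacts called in neither. Over all interactions (-0.26) it was -0.18 with the larger pseudocount, -0.32 for the summit, -0.20 without those lowest counts, -0.075 after centring and -0.22 over those called in neither. The difference between the medians at PCGF2 and other sites (-0.68) was -0.33 with the larger pseudocount, which weighs on low counts by construction. The share at least 2-fold lower at PCGF2 sites (42.3%) was 6.92% with the larger pseudocount, 25.9% without those lowest counts, 25.4% after centring and 30.0% over contacts called in neither, and at other sites (3.87%) it was 0.352%, 7.75% for the summit and 2.12% without those lowest counts. The sum of mean counts per fragment after OHT (60.7% of untreated) was 54.4% as a sum over all fragments, 55.9% for summits and 50.5% without Hox baits. It was 60.7% without the contact with most reads and 62.3% without those lowest counts. For this sum 54.4% was tallied as within the interval and 60.72% as moved, so the interval did not lie around the reported value. Its part in the tally is not to be relied on. The median untreated score at PCGF2 sites was 6.02 for the summit. Calls at PCGF2 sites, 86 untreated and 15 after OHT, were 22 and 0 at a threshold of 10 and 40 and 2 for the mean score over fragments, and after OHT 40 at a threshold of 3. Interactions below no change by counting error were 124 by the interval and 76 by the adjusted binomial test, and at other sites 21 and 10. The causes of these shifts were not tested. No paired analysis was possible because each group has 1 pooled column, and for the same reason no replicate could be left out. Depth limits contacts over 10 Mb most, with a median of 4 untreated reads.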

Other observations

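Within the 50 contacts of listed baits with PCGF2 sites that spanned over 10 fragments, the summit fragment kept a median of 36.4% of its untreated count and the rest of the region 41.0%, and the summit kept the smaller share in 35 of 50. At 51 other sites of that width the medians were 80.0% and 90.7%, with the smaller share at the summit in 36. The summit was chosen by its score in these and other libraries, so nothing is read from the difference.

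Of the 93 distinct regions with PCGF2 sites that listed baits reached, 86 had a lower summed count after OHT. The region at Lrp2 (chr2:69582504-69588008), the gene of an endocytic receptor, was reached by Sp5, Dlx2 and Hoxd10 and went from 68 to 26 reads (41.8%). The region at Sp9 (chr2:73268827-73279031), a zinc finger factor gene, was reached by Dlx2 and Hoxd10 and went from 156 to 60 reads (42.0%).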
